A study of Mus musculus with 2 samples.

Results

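Nuclear-encoded oxidative phosphorylation genes code for most subunits of the respiratory chain and of ATP synthase. They were taken by name: symbols starting with Nduf, Uqcr, Cox4 to Cox8 or Atp5, and Sdha, Sdhb, Sdhc and Sdhd, without pseudogene and predicted names, with at least 20 unique molecular identifiers (UMIs, each standing for 1 captured RNA molecule) over both libraries. Of 94 gene rows whose symbol fits, 85 of the 30431 rows in the files reached that minimum, and these are the members. They hold 84 symbols, since Atp5o stands on 2 identifiers. By role they are 35 subunits and 8 assembly factors of complex I, 4 subunits of complex II, 8 of complex III, 12 rows of complex IV and 18 of complex V.

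Single-nucleus RNA-seq compared the dorsal CA1 region of the hippocampus of mice made epileptic with kainate, a glutamate receptor agonist, with that of vehicle-injected controls. Both groups were male C57BL/6J mice carrying Calb1::Cre and Tdtomato, injected as young adults. The epilepsy group received hourly injections of kainate at 5 mg/kg up to status epilepticus, which was stopped with diazepam at 4 mg/kg, and the control group received saline or DMSO. Nuclei were isolated 12 weeks later. Each condition has 1 library. Per the labels, nuclei came from 2 mice of each condition, and whether these were pooled is not stated. No difference therefore has a replicate check or a test, and the 95% intervals given here cover counting error only. The labels do not say whether sorting used Tdtomato, whose Cre driver follows the Calb1 gene.

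The control library held 3661 nuclei with a median of 3447 UMIs and the epilepsy library 3078 with a median of 2443, and 16 cell barcodes occurred in both. Clusters were named from marker genes. CA1 pyramidal-like nuclei made up 2836 of 3551 control nuclei kept (79.9%) and 2339 of 2986 epilepsy nuclei kept (78.3%), with all 9 of 9 pyramidal markers detected in each library. Within them the median depth was 3574.5 UMIs in the control library and 2567 in the epilepsy library. Levels are UMIs per 1000000 UMIs of the class (CPM), so they are shares of the RNA captured and not amounts per nucleus. Among 6 oligodendrocyte markers, all 6 were detected in the pyramidal-like nuclei of each library, at a summed 109 CPM in control and 154 CPM in epilepsy nuclei. The 7 interneuron markers were all detected there too, at 57.6 and 85.1 CPM. The part of RNA from other cells in the differences reported here was not tested.

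The respiratory chain passes electrons from NADH through complex I, or from succinate through complex II, to complex III, cytochrome c and complex IV, where oxygen is reduced. Complexes I, III and IV pump protons across the inner mitochondrial membrane, and complex V, the ATP synthase, uses that gradient to make ATP. All complexes but complex II also contain subunits encoded by mitochondrial DNA, so their assembly draws on both genomes. Neurons rely on oxidative phosphorylation for the ATP that restores ion gradients after firing.

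Factors known to bind promoters of these genes include NRF1, the ETS protein GABP, the estrogen-related receptors and YY1. Promoters from 250 bases before to 50 after the start were given in RefSeq (GRCm38.p6) for 70 of the 84 symbols, 75 promoters in all. The NRF1 and YY1 motifs, which show as the capitals in the stretches printed here, and the letters ACCGGAAG for ETS/GABP and TCAAGGTCA for the estrogen-related receptors were searched on both strands. The NRF1 letters stood in 20 of the 75 (26.7%), against 4.60% of all 32851 promoters in the table. YY1 letters stood in 6 (8%) against 0.852%, ETS/GABP letters in 7 (9.33%) against 2.30%, and estrogen-related receptor letters in 2 (2.67%) against 0.423%. At least 1 of the 4 was found in 31 promoters (41.3%), against 7.77% of all. A match describes letters and is not a binding site. The stretches printed here show the forms the matches take, were chosen after their letters had been seen, and run 5′ to 3′ on the gene's strand, which is the minus strand for each. Capitals mark the match, on either strand, and none of these matches overlaps a match of another motif. The first 8 are 30 bases around a match, and the last 2 are the 100 bases before the RefSeq start, which lie outside every gene of GENCODE M21.
Sdha NRF1, chr13:74350276-74350305: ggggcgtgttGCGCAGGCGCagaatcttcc
Sdha NRF1, chr13:74350241-74350270: cgacacccgcgcgactcggtGCGCAAGCGC
Sdhd NRF1, chr9:50603909-50603938: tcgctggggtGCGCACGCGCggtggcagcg
Sdhd ETS/GABP, chr9:50603877-50603906: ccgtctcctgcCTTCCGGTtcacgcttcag
Ndufa5 NRF1, chr6:24527697-24527726: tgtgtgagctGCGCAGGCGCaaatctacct
Atp5c1 NRF1, chr2:10080433-10080462: cgcctgagctcccGCGCACGCGCactgagt
Atp5j YY1, chr16:84835045-84835074: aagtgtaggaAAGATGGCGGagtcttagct
Atp5g2 NRF1, chr15:102671070-102671099: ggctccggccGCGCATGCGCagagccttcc
Atp5g3 estrogen-related receptor, chr2:73911327-73911426: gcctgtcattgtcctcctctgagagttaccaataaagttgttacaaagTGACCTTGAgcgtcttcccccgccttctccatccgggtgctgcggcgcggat
Ndufaf1 ETS/GABP, chr2:119662835-119662934: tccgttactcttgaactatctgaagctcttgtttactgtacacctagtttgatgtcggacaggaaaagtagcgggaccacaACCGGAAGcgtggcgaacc

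The members were also set apart by match in the comparison of epilepsy with control in CA1 pyramidal-like nuclei. The median log2 ratio was -0.08 over 18 members with NRF1 letters and -0.05 over 49 without. Over the 5 members with ETS/GABP letters it was -0.29, against -0.05 over the 62 without. Over the 5 with YY1 letters it was -0.04, against -0.06 over 62 without. The 2 with estrogen-related receptor letters went the other way, at 0.30 against -0.07 over 65 without. These are descriptions of small lists with no test.

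In CA1 pyramidal-like nuclei the members as a whole were close to level between the libraries. They summed to 16375 UMIs, or 1685 CPM (95% interval 1659 to 1711), in the control library, and to 9346 UMIs, or 1603 CPM (1571 to 1636), in the epilepsy library. The log2 ratio of epilepsy to control was -0.07 (-0.11 to -0.04), a 1.05-fold lower share in the epilepsy library. The sum moved to -0.12 when libraries were scaled by TMM factors, and to -0.02 when each nucleus had equal weight. A median control nucleus held 6 member UMIs and a median epilepsy nucleus 4, and 1.97% and 4.02% of nuclei held none, with the depths of the libraries differing as given above.

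A ratio was read for single genes with at least 50 UMIs in the class over both libraries, which 81 of the 85 members reached. Their median log2 ratio was -0.07 and 53 lay below 0, against a median of 0.00 over all 11078 genes with that many UMIs. Differences of at least 1.5-fold were counted. Lower in the epilepsy library were 6 of the 81 members, where 5.09% of all such genes were, and 1 of the 81 was higher, where 8.77% of all such genes were. The share of members that were lower was thus near that of all genes. Only 1 of these 6 members had 200 UMIs or more.

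**Figure D1:**
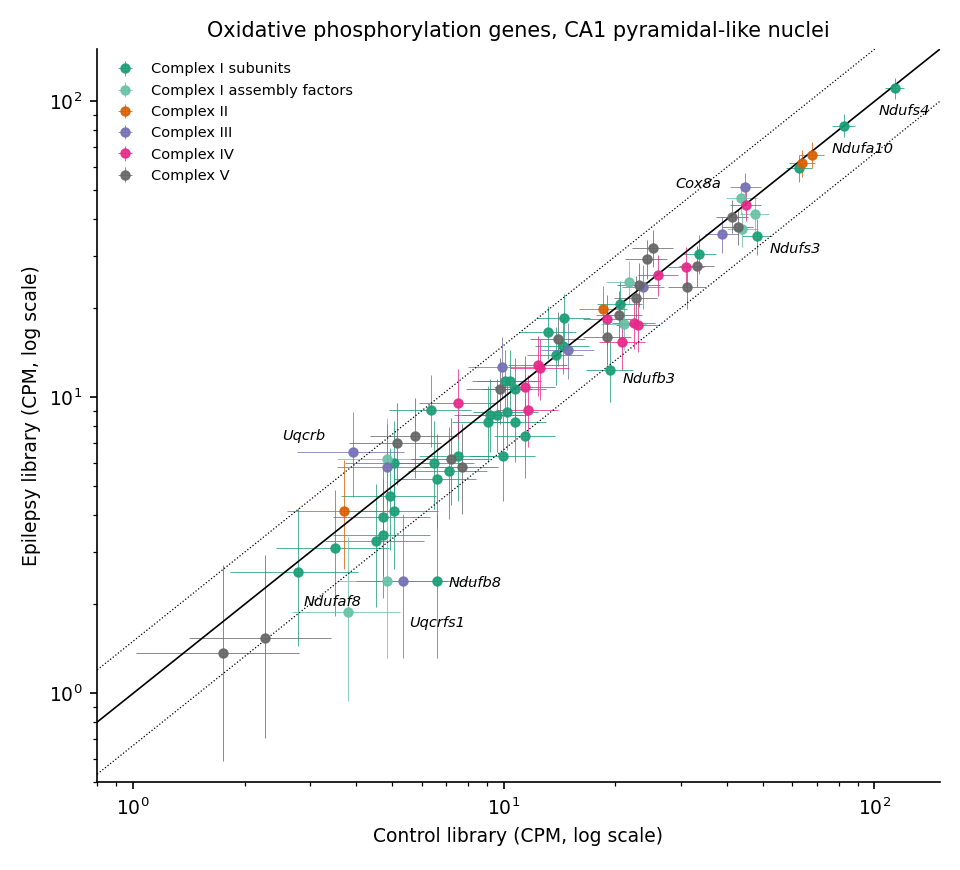
Level of each of the 85 members in CA1 pyramidal-like nuclei of the control library (x axis) and the epilepsy library (y axis), in CPM on log scales. Bars are exact Poisson 95% intervals, the solid line is equality and the dotted lines are 1.5-fold. Most members lie between the dotted lines, and Ndufb8, the member with the lowest ratio, rests on 64 and 14 UMIs.

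Complex I takes electrons from NADH. Its 35 subunits summed to 613 CPM in control and 571 CPM in epilepsy nuclei, a log2 ratio of -0.10 (-0.16 to -0.04). The 7 core subunits, which carry the catalytic flavin, iron-sulfur and quinone sites, gave -0.13 (-0.24 to -0.02), and the 28 accessory subunits -0.09 (-0.17 to -0.02). Of 34 subunits with at least 50 UMIs, 24 lay below 0.

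Among the core subunits described here, Ndufs3, part of the arm that links the electron-input module to the membrane, had the largest difference. It stood at 48.3 CPM (44.0 to 52.8) in the control library and 35.0 CPM (30.3 to 40.1) in the epilepsy library, a log2 ratio of -0.46 (-0.71 to -0.22). The counting intervals of the libraries do not overlap. The intervals of the log2 ratio of the 5 that follow include 0. Ndufs1, an iron-sulfur subunit, stood at 62.5 and 59.3 CPM in the control and epilepsy libraries. Ndufv1, which binds NADH, stood at 13.8 and 13.9 CPM. Ndufv2 stood at 33.5 and 30.5 CPM, and Ndufs7 at 14.4 and 14.9 CPM. Ndufs8, an iron-sulfur subunit, had the fewest UMIs of these, 49 in control and 24 in epilepsy nuclei, and a log2 ratio of -0.29 (-1.06 to 0.44).

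Accessory subunits surround the core and are needed for its assembly or stability. Of the 6 members past 1.5-fold lower, 4 were accessory subunits. Ndufb8 had 64 UMIs (6.58 CPM) in control and 14 UMIs (2.40 CPM) in epilepsy nuclei, a log2 ratio of -1.46 (-2.40 to -0.61). It was named after its values had been seen, and 62.0% of its span on chromosome 19 (44548572 to 44555440, GENCODE M21) overlaps the predicted gene Gm20538 on the same strand. Gm20538 held 3 UMIs in each library in this class, and how reads that match both genes were counted is not given. Ndufb3 stood at 19.3 CPM (16.7 to 22.3) in control and 12.3 CPM (9.66 to 15.6) in epilepsy nuclei, a log2 ratio of -0.65 (-1.06 to -0.25). Ndufa12 stood at 9.98 and 6.35 CPM, a log2 ratio of -0.65 (-1.24 to -0.09). Ndufa5 stood at 11.4 and 7.37 CPM, a log2 ratio of -0.63 (-1.17 to -0.11). These 3 are the accessory subunits named by the rule for the lowest members.

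On the higher side, intervals of accessory subunits all included 0. Ndufa9, which sits near the quinone site, stood at 14.5 CPM in control and 18.5 CPM in epilepsy nuclei, a log2 ratio of 0.35 (-0.02 to 0.72). Ndufa3 stood at 6.38 and 9.09 CPM, a log2 ratio of 0.51 (-0.05 to 1.06). The member with the most UMIs of all, Ndufs4, had 1103 UMIs in control and 645 in epilepsy nuclei, or 113 and 111 CPM, a log2 ratio of -0.04 (-0.18 to 0.10). Ndufa10, next in UMIs, stood at 82.6 and 82.8 CPM. The accessory subunits counted best were thus level to within a small interval.

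Assembly factors of complex I guide its building and leave the finished enzyme. The 8 summed to 192 CPM in control and 178 CPM in epilepsy nuclei, a log2 ratio of -0.10 (-0.22 to 0.01). Ndufaf7, a methyltransferase, stood at 44.0 CPM in control and 37.0 CPM in epilepsy nuclei, a log2 ratio of -0.25 (-0.49 to -0.01). Ndufaf2, an assembly chaperone, stood at 43.7 and 47.0 CPM, a log2 ratio of 0.10 (-0.12 to 0.33), and Ndufaf6 at 21.7 and 24.5 CPM, a log2 ratio of 0.18 (-0.14 to 0.49). Ndufaf8, named after its values had been seen, had 47 UMIs in control and 14 in epilepsy nuclei, a log2 ratio of -1.01 (-1.99 to -0.12). It is the assembly factor among the 6 members past 1.5-fold lower. Ndufaf1, with 37 and 11 UMIs, was under the minimum of 50.

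Complex II, succinate dehydrogenase, belongs to both the chain and the citric acid cycle and is wholly encoded in the nucleus. Its 4 subunits were level, at 154 CPM in control and 152 CPM in epilepsy nuclei, a log2 ratio of -0.02 (-0.14 to 0.10). The flavoprotein Sdha, whose promoter holds the NRF1 letters shown above, stood at 67.7 and 65.9 CPM. The iron-sulfur subunit Sdhb stood at 63.9 and 61.7 CPM. The membrane anchors were lower in level and had wider intervals: Sdhc stood at 18.5 and 19.9 CPM, and Sdhd at 3.70 and 4.12 CPM. All 4 intervals of the log2 ratio include 0.

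Complex III passes electrons from quinol to cytochrome c. Its 8 members summed to 146 CPM in control and 152 CPM in epilepsy nuclei, a log2 ratio of 0.06 (-0.06 to 0.18). It is the complex whose members reached 1.5-fold in opposite directions. Uqcrfs1, the Rieske iron-sulfur protein, had 52 UMIs (5.35 CPM) in control and 14 UMIs (2.40 CPM) in epilepsy nuclei, a log2 ratio of -1.16 (-2.12 to -0.28). Uqcrb, which contributes to quinone binding, had 38 UMIs in each library, 3.91 CPM in control and 6.52 CPM in epilepsy nuclei, a log2 ratio of 0.74 (0.05 to 1.42). Both were named after their values had been seen, and both had under 100 UMIs. Uqcrc1, a large core-domain subunit, was counted better, at 44.9 CPM in control and 51.3 CPM in epilepsy nuclei, a log2 ratio of 0.19 (-0.02 to 0.41). Uqcr10, a small subunit, stood at 9.88 and 12.7 CPM, with an interval from -0.10 to 0.81.

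Outside the name rule, Cyc1, the cytochrome c1 of complex III, stood at 15.5 CPM in control and 12.2 CPM in epilepsy nuclei, and the electron carrier Cycs at 9.16 and 8.23 CPM. Their summed log2 ratio was -0.27 (-0.60 to 0.05), from 240 and 119 UMIs.

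Complex IV, cytochrome c oxidase, passes electrons to oxygen. Its 12 rows summed to 243 CPM (233 to 253) in control and 222 CPM (210 to 235) in epilepsy nuclei, a log2 ratio of -0.13 (-0.23 to -0.03), and 10 of the 12 lay below 0. None of the 12 reached 1.5-fold in either direction. Cox7c stood at 20.9 CPM (18.1 to 24.0) in control and 15.4 CPM (12.4 to 19.0) in epilepsy nuclei, a log2 ratio of -0.44 (-0.81 to -0.07). Cox6c stood at 23.0 and 17.5 CPM, a log2 ratio of -0.40 (-0.75 to -0.05). Cox5a, at 22.4 and 17.8 CPM, had a log2 ratio of -0.33 (-0.68 to 0.01). Cox7c and Cox6c are small nuclear-encoded subunits with no role in the catalytic site itself. Ndufa4, named after complex I but known as a subunit of complex IV, stood at 11.6 and 9.09 CPM, with an interval from -0.85 to 0.13.

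Several complex IV subunits exist as isoforms, one of them widespread and others known from muscle, lung or testis. Cox6a1 had 31.1 CPM in control and 27.6 CPM in epilepsy nuclei, while the muscle form Cox6a2 had 2 and 0 UMIs over all nuclei. Cox6b1 had 19.0 and 18.4 CPM, while Cox6b2, the testis form, had 3 UMIs in each library over all nuclei. Cox7a2 had 12.3 and 12.9 CPM, against 5 and 6 UMIs over all nuclei for the muscle form Cox7a1. Cox7a2l, which helps to join complexes III and IV, had 11.4 and 10.8 CPM. Cox8a had 45.0 and 44.8 CPM, while Cox8b and Cox8c were at 0 UMIs in both libraries. For a count of 0 the limit used is 3 UMIs per library, a one-sided 95% limit, which is lower than the upper end of the intervals given elsewhere.

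The isoform Cox7b2, known mainly from testis, was measured here at 7.51 CPM in control and 9.60 CPM in epilepsy nuclei, beside 26.1 and 25.9 CPM for Cox7b. Per kilobase of gene span the 2 were further apart, at 3.87 CPM per kb for Cox7b and 0.0713 CPM per kb for Cox7b2 in the control library, since Cox7b2 spans 105.4 kb. Cox4i1, the widespread form of subunit 4, and Ndufa13, a complex I subunit, were both at 0 UMIs. Ndufa4l2 was at 0 UMIs too. Cox4i2, the form of subunit 4 known from lung, had 4 UMIs in control and 10 in epilepsy nuclei. These rows, with Cox6a2, Cox6b2, Cox7a1, Cox8b and Cox8c, are the 9 that missed the minimum of 20 UMIs.

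Complex V has an F1 head that makes ATP, a ring of c subunits turned by protons, and a stalk that holds the head. Its 18 rows summed to 337 CPM in control and 327 CPM in epilepsy nuclei, a log2 ratio of -0.04 (-0.12 to 0.04). The F1 head gave -0.08 (-0.22 to 0.06), the peripheral stalk -0.01 (-0.18 to 0.15), the c ring 0.05 (-0.20 to 0.30) and the small membrane subunits -0.01 (-0.18 to 0.16). No member of complex V with at least 50 UMIs reached 1.5-fold.

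Within the F1 head, Atp5b, the catalytic beta subunit, stood at 41.3 CPM in control and 40.8 CPM in epilepsy nuclei. Atp5a1, the alpha subunit, stood at 22.7 and 21.6 CPM. Atp5c1, the gamma subunit that turns inside the head, stood at 33.1 and 27.8 CPM, a log2 ratio of -0.25 (-0.54 to 0.02). In the stalk, Atp5f1, subunit b, had the lowest ratio, at 31.2 CPM (27.8 to 34.9) in control and 23.7 CPM (19.9 to 28.0) in epilepsy nuclei, a log2 ratio of -0.40 (-0.70 to -0.10). The Atp5o row with the long span had 25.2 and 31.9 CPM, a log2 ratio of 0.34 (0.06 to 0.62), and heads the list of highest members. That row spans 242.6 kb on chromosome 16 (91684398 to 91926982), and all of its exonic bases overlap other genes on the same strand, among them Donson, Cryzl1 and the other Atp5o row, which had 22 and 9 UMIs. Of its span, 18.9% overlaps these genes. How reads that match several genes were counted is not given, and 419 of 420 protein-coding genes inside another same-strand gene were at 0 UMIs. Where in the span the UMIs of this row fall was not tested.

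The c subunit is made from 3 genes that code for the same mature protein. Atp5g1 stood at 20.5 CPM in control and 19.0 CPM in epilepsy nuclei, Atp5g2 at 9.77 and 10.6 CPM, and Atp5g3 at 5.14 and 7.03 CPM. Per kilobase of span Atp5g1 stayed the highest, with 3.00 and 2.79 CPM per kb, then Atp5g3 with 1.79 and 2.44 and Atp5g2 with 1.03 and 1.12. Among the membrane subunits, Atp5j2 stood at 24.3 and 29.3 CPM, a log2 ratio of 0.27 (-0.02 to 0.56).

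Genes outside the rule give the setting of these values. Counts past 1.5-fold in these lists stand beside 5.09% of all 11078 genes lower and 8.77% higher. The 13 genes of the mitochondrial genome, whose RNA is made in mitochondria and can be in a nuclear preparation only as carried-over cytoplasm, summed to 174 CPM (166 to 183) in control and 146 CPM (137 to 156) in epilepsy nuclei. Their log2 ratio was -0.25 (-0.37 to -0.13), with 7 of 8 measured genes below 0 and 1 at least 1.5-fold lower. The lowest were mt-Nd2 at -0.95 (-1.93 to -0.06) and mt-Atp6 at -0.47 (-0.82 to -0.13), and mt-Co3 stood at 0.02 (-0.23 to 0.26). The 85 ribosomal protein genes, whose RNA is abundant in cytoplasm, were level at 736 and 735 CPM. Their extremes on the lower side were Rpl7l1 at -0.80 (-1.20 to -0.42) and Rpl41 at -0.43 (-0.70 to -0.15). Rpl7l1 is an L7-like gene that the name pattern of the list also took in. On the higher side stood Rps21 at 0.97 (0.20 to 1.75) and Rpl37a at 0.47 (0.11 to 0.83). The part of cytoplasmic RNA in the member ratios was not tested.

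Assembly factors of complexes I to V that lie outside the name rule numbered 38 and gave a summed log2 ratio of -0.03 (-0.08 to 0.03). Of the 28 with at least 50 UMIs, 2 were at least 1.5-fold lower and 2 higher. Cox10, which takes part in making the heme A of complex IV, had the largest difference upward. It stood at 48.5 CPM in control and 85.2 CPM in epilepsy nuclei, a log2 ratio of 0.81 (0.63 to 1.00). Pet100, another complex IV factor, stood at 0.49 (0.23 to 0.75). Of the pair Tmem126a and Tmem126b, the complex I factor Tmem126b stood at -0.72 (-1.16 to -0.30) and Tmem126a at -0.36 (-0.52 to -0.21).

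The 16 citric acid cycle genes, which supply NADH and succinate, gave a summed log2 ratio of 0.02 (-0.03 to 0.08), with 1 at least 1.5-fold lower and none higher. Pdha1, of the pyruvate dehydrogenase that feeds the cycle, stood at -0.81 (-1.51 to -0.15) and malate dehydrogenase Mdh2 at -0.52 (-0.86 to -0.19). Suclg1, of succinyl-CoA ligase, stood at 0.45 (0.26 to 0.65) and Idh3g, of isocitrate dehydrogenase, at 0.40 (0.16 to 0.63). The 17 glycolysis rows gave -0.02 (-0.08 to 0.04), with Ldhb of lactate dehydrogenase at -0.61 (-0.999 to -0.23) and Aldoa of aldolase at -0.48 (-0.79 to -0.18). Pfkm, at 0.20 (-0.03 to 0.42), and Pgk1, at 0.37 (-0.03 to 0.76), were the highest of that list, with intervals that include 0.

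The 20 regulators of mitochondrial genes gave a summed log2 ratio of 0.06 (0.00 to 0.11), and of 17 measured 1 was at least 1.5-fold lower and none higher. That one was Yy1, which encodes the factor of the YY1 letters, at 20.4 CPM in control and 13.0 CPM in epilepsy nuclei, a log2 ratio of -0.64 (-1.05 to -0.26). Ppargc1a, the coactivator PGC-1 alpha, was level at 66.8 and 64.3 CPM. Esrrg, an estrogen-related receptor, stood at 0.14 (0.00 to 0.28) and the coactivator Pprc1 at 0.28 (-0.05 to 0.59).

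**Figure D2:**
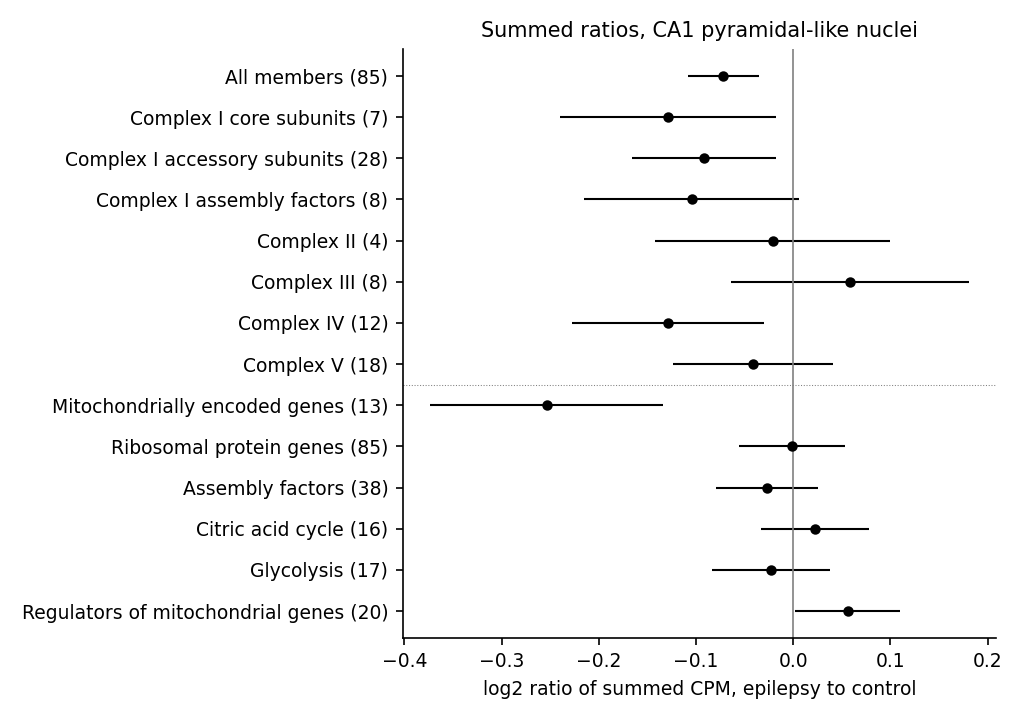
Log2 ratio of summed CPM, epilepsy to control, in CA1 pyramidal-like nuclei, for the members by complex (above the dotted line) and for lists outside the name rule (below it), with the number of gene rows in parentheses. Points are values of 1 library per condition and bars are 95% counting intervals. Complex I and complex IV lie below 0, complex III at 0.06, and mitochondrially encoded genes lowest of the lists plotted at -0.25; the pair Cyc1 and Cycs, at -0.27, is not plotted.

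The difference between libraries was not the same at every depth of nucleus. In nuclei of 2000 to 4000 UMIs, of which 1628 were control and 1659 epilepsy nuclei, the members stood at 1727 and 1560 CPM, a log2 ratio of -0.15 (-0.19 to -0.10). Nuclei of 4000 to 8000 UMIs gave -0.14 (-0.29 to 0.01) and those of 1000 to 2000 UMIs -0.09 (-0.23 to 0.04). In the shallowest range, 500 to 1000 UMIs, the order was reversed, with 1694 CPM in 90 control nuclei and 2871 CPM in 130 epilepsy nuclei, a log2 ratio of 0.76 (0.46 to 1.07). The epilepsy library thus had a lower share in the ranges from 1000 UMIs up, with an interval that excludes 0 from 2000 to 4000 UMIs. Depth was not equal within that range, with a median of 3357 UMIs in control and 2787 in epilepsy nuclei. Medians were 1477 and 1618.5 from 1000 to 2000 UMIs, and 4380 and 4363 from 4000 to 8000. The part of depth within a range in these ratios was not tested.

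Much of the high level in shallow epilepsy nuclei sat in 1 sub-cluster of the pyramidal-like nuclei, which held 2 control and 56 epilepsy nuclei. Its epilepsy nuclei held 237 member UMIs at 4436 CPM (3889 to 5038), beside 1486 to 1649 CPM in the 6 deeper sub-clusters of that library. The same nuclei held 543 CPM of mitochondrially encoded RNA, 2770 CPM of ribosomal protein RNA and 1834 CPM of oligodendrocyte markers, and Neat1 and Mag were among its leading genes. Without the 3 sub-clusters of lowest median depth, 63 control and 74 epilepsy nuclei, the summed log2 ratio was -0.10. In what remained, nuclei of 500 to 1000 UMIs still stood at 1645 CPM in 49 control and 2249 CPM in 79 epilepsy nuclei, a log2 ratio of 0.45 (0.03 to 0.89). The choice to leave these sub-clusters out was made after seeing the data.

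**Figure D3:**
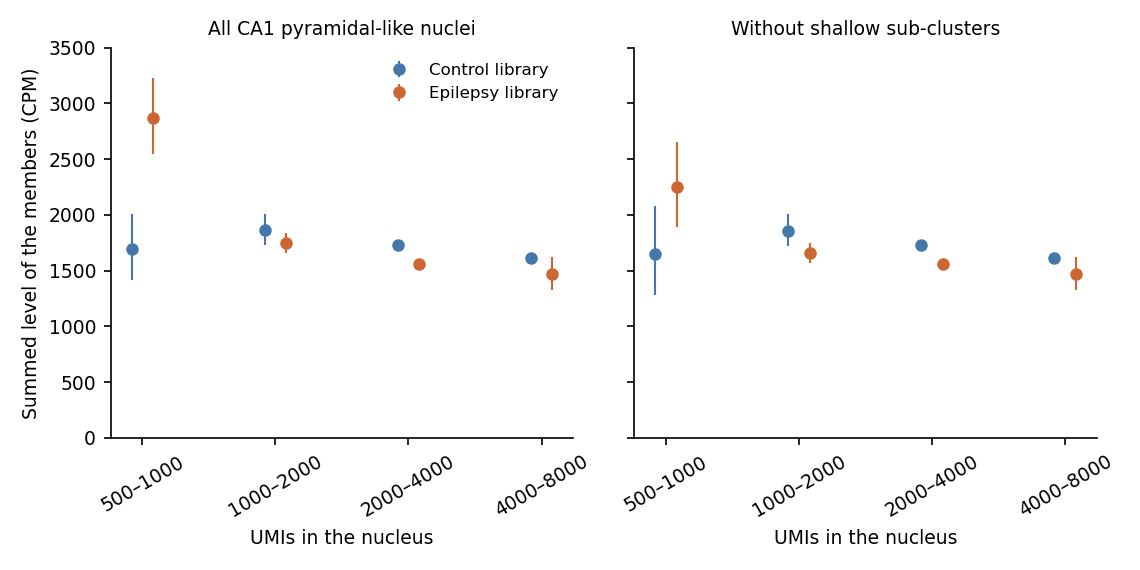
Summed level of the 85 members in CPM (y axis) in CA1 pyramidal-like nuclei grouped by their UMIs (x axis), in the control and the epilepsy library, with exact Poisson 95% intervals. The left panel has all nuclei and the right panel leaves out the shallow sub-clusters. The epilepsy library is higher only in the range of 500 to 1000 UMIs, at 2871 CPM in the left panel and 2249 CPM in the right, and lower in the other 3 ranges.

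The nuclei were also split by mitochondrially encoded UMIs. In nuclei with no mitochondrially encoded UMI, 1669 control and 1718 epilepsy nuclei, the members gave a log2 ratio of -0.08 (-0.13 to -0.04). In nuclei with 1 or more, 1167 and 621, it was -0.05 (-0.12 to 0.01). Ribosomal protein RNA was near the same level on both sides of the split, at 727 and 747 CPM in control and 729 and 752 CPM in epilepsy nuclei, so the split does not separate nuclei by that measure of cytoplasm.

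CA1 pyramidal cells form a deep and a superficial sublayer, the latter rich in Calb1. Sub-clusters named from sublayer markers gave 826 deep-like control and 609 deep-like epilepsy nuclei, and 1088 and 917 superficial-like ones. Ndst4, Col11a1 and Nr4a2 were higher in the deep-like sub-clusters, but not every listed deep marker followed the names. Against the other pyramidal-like nuclei, Enpp2 had log2 ratios of -1.26 and -1.18 in the deep-like sub-clusters and 1.10 and 0.34 in the superficial-like ones. Sox5 had -1.28 and 0.41 in the deep-like and -1.54 and 1.13 in the superficial-like sub-clusters. Nr4a2 had 1.10 and 0.37 in the deep-like sub-clusters. It stood higher, at 2.21, in a sub-cluster of neither sublayer with Fos and Junb among its leading genes. Deep-like nuclei held 1740 CPM of member RNA in control and 1574 CPM in epilepsy nuclei, a log2 ratio of -0.14 (-0.21 to -0.08). Superficial-like nuclei held 1678 and 1564 CPM, a log2 ratio of -0.10 (-0.16 to -0.04). The log2 ratio of superficial-like to deep-like nuclei was -0.05 (-0.10 to 0.00) in the control and -0.01 (-0.08 to 0.06) in the epilepsy library. A score of the sublayer markers without Sox5 and Enpp2 gave a further split. That score counts Nr4a2 as a deep marker, so it can move nuclei high in Nr4a2 to the deep side whatever their sublayer. The split by median marker score, which includes every pyramidal-like nucleus, gave superficial to deep ratios of -0.09 (-0.13 to -0.04) and -0.09 (-0.15 to -0.03), with intervals that exclude 0. Its epilepsy to control ratios were -0.07 in deep and -0.08 in superficial nuclei. Whether the libraries differ more in one sublayer was not tested.

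By gene, 10 of 48 members with at least 50 UMIs in deep-like nuclei were at least 1.5-fold lower in the epilepsy library, where 8.27% of all such genes were, and 2 were higher, where 5.04% were. Ndufs3, the core subunit, had 47.8 CPM in control and 26.4 CPM in epilepsy deep-like nuclei, a log2 ratio of -0.85 (-1.38 to -0.35). In superficial-like nuclei 6 of 59 were lower, where 5.57% were, and 2 were higher, where 7.19% were. There Ndufs3 stood at -0.62 (-1.02 to -0.24) and Uqcr10 at 1.20 (0.46 to 1.96). Ndufs3 was chosen for its ratio in the whole class, which holds these nuclei and where it stood at -0.46, short of 1.5-fold. Its ratio in the nuclei of neither sublayer therefore lay nearer to 0 or above it. Uqcr10 is likewise among the highest members of the whole class. There it stood at 0.36 (-0.10 to 0.81), from 96 control and 74 epilepsy UMIs. Whether its ratio is particular to superficial-like nuclei was not tested. The members' counts rest on fewer UMIs per gene than in the whole class.

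The other classes with at least 30 nuclei in each library gave wider intervals. Interneuron-like nuclei, 198 control and 143 epilepsy, held 2143 and 1979 CPM of member RNA, a log2 ratio of -0.11 (-0.25 to 0.02). Oligodendrocyte-like nuclei, 227 and 313, held 1877 and 1824 CPM, a log2 ratio of -0.04 (-0.21 to 0.12). Microglia-like nuclei, 36 and 37, gave 0.12 (-0.23 to 0.47), and CA2/CA3 pyramidal-like nuclei, 40 and 64, gave 0.14 (-0.11 to 0.39). All 4 intervals include 0. Microglia-like nuclei held 2742 and 2217 CPM of CA1 pyramidal markers beside 1446 and 2454 CPM of microglia markers, and their median depth was 3002 UMIs in control and 858 in epilepsy nuclei. CA2/CA3 pyramidal-like nuclei held 1645 and 1835 CPM of CA1 pyramidal markers beside 1216 and 2459 CPM of CA2/CA3 markers. The part of this RNA and of depth in the ratios was not tested. In oligodendrocyte-like nuclei only 2 members, Sdha and Ndufs4, had at least 50 UMIs, and neither reached 1.5-fold, where 6.67% of 2413 genes were lower and 5.93% higher. Over all nuclei the log2 ratio was -0.07 (-0.10 to -0.04), with 6 of 82 members at least 1.5-fold lower, where 5.03% of all such genes were, and 1 higher, where 9.47% were.

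**Figure D4:**
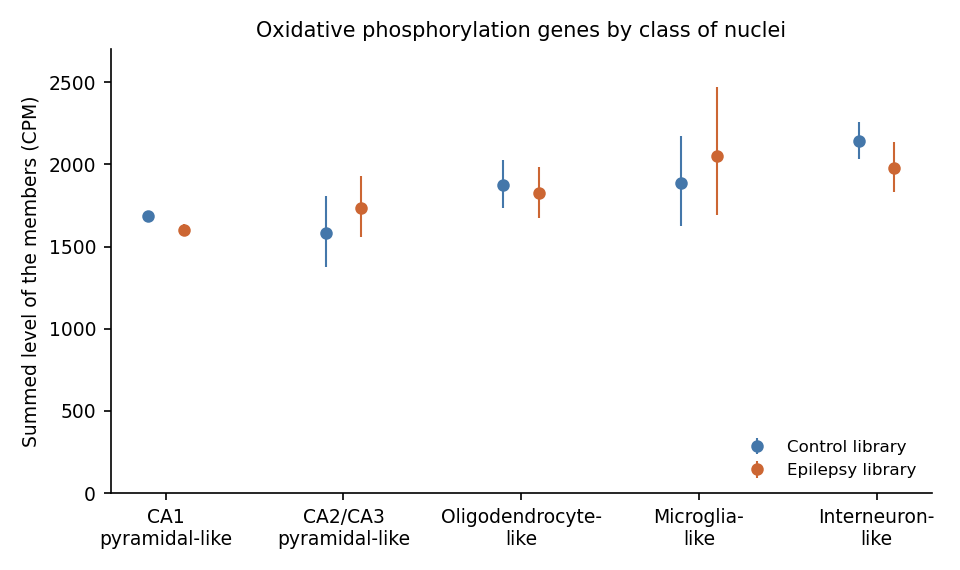
Summed level of the 85 members in CPM (y axis) in each class of nuclei with at least 30 nuclei in each library (x axis), in the control and the epilepsy library, with exact Poisson 95% intervals. Interneuron-like nuclei have the highest control level, 2143 CPM, and CA1 pyramidal-like nuclei stand at 1685 CPM.

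Interneurons, many of which fire fast, are known for a high demand for ATP. Interneuron-like nuclei held a 1.27-fold higher share of member RNA than CA1 pyramidal-like nuclei in the control library (1.20 to 1.34) and a 1.23-fold higher share in the epilepsy library (1.14 to 1.34). In the control library each complex was higher, from 1.15-fold for complex I subunits to 1.43-fold for complex II. In the epilepsy library complex IV was highest, at 1.44-fold (1.17 to 1.76), and complex I subunits stood at 1.18-fold (1.03 to 1.35). Intervals there included equality for complex II at 1.24-fold (0.941 to 1.60), complex III at 1.15-fold (0.868 to 1.504) and complex V at 1.19-fold (0.990 to 1.43). The shares of mitochondrially encoded RNA, at 1.13-fold (0.934 to 1.35) and 1.08-fold (0.797 to 1.42), and of ribosomal protein RNA, at 1.08-fold and 1.01-fold, had intervals that include equality in both libraries. Oligodendrocyte-like nuclei stood 1.11-fold above pyramidal-like nuclei in control and 1.14-fold in epilepsy nuclei, beside mitochondrially encoded RNA at 2.43-fold and 2.65-fold. They also held 1944 and 1743 CPM of CA1 pyramidal markers, against 3210 and 3344 CPM in the pyramidal-like nuclei themselves, and the part of this RNA in the comparison was not tested.

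For single genes the filter was 50 UMIs in the interneuron-like nuclei, observed or scaled from the pyramidal level, a filter set after seeing the data, and 13 members passed it. Their median log2 ratio of interneuron-like to pyramidal-like nuclei was 0.49 in control and 0.37 in epilepsy nuclei, against 0.14 and 0.10 over all 3805 genes tested. A gene whose scaled pyramidal count was under 50 passed only if its observed interneuron-like count was higher. Most of the 13 members passed in that way. The filter thus favoured higher ratios among them, and their medians are not read as a difference between the classes. Of the 13, 1 was at least 1.5-fold higher in both libraries, where 22.0% of all genes tested were. It was Ndufaf5, an assembly factor of complex I, at 49.8 CPM in interneuron-like and 21.1 CPM in pyramidal-like nuclei of the control library, a log2 ratio of 1.24 (0.66 to 1.78). In the epilepsy library it stood at 51.5 and 17.7 CPM, a log2 ratio of 1.54 (0.71 to 2.29). Ndufaf5 had 33 control and 17 epilepsy UMIs in interneuron-like nuclei and passed the filter only through these. Its higher ratio is therefore not independent of the filter.

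Between conditions within interneuron-like nuclei, 3 of the 13 members with at least 50 UMIs were at least 1.5-fold lower, where 7.25% of 3391 genes were, and none higher, where 5.34% were. Atp5l, a membrane subunit of complex V, had 43 UMIs in control and 8 in epilepsy nuclei, a log2 ratio of -1.42 (-2.72 to -0.32). Atp5b had 45 and 14 UMIs and Sdha 73 and 23, with intervals that include 0. These 3 were named after their values had been seen.

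The members are short genes. Their span from start to end had a median of 7.76 kb, from 1.21 to 242.6 kb, against a median of 33.5 kb over all genes with at least 50 UMIs in CA1 pyramidal-like nuclei. Across the 85 members, which share the same libraries, CPM and span had a Spearman correlation of 0.51 in control and 0.50 in epilepsy nuclei, given as a description. Per kilobase of span, Cox8a was the highest member at 18.2 CPM per kb in each library, followed in the control library by Cox7c at 10.0 CPM per kb and Cox6a1 at 9.30 CPM per kb. Ndufs4, highest in CPM, had 1.13 CPM per kb over its 100.5 kb. In the epilepsy comparison short and long members had like medians, with a log2 ratio of -0.07 over 50 members under 10 kb and -0.07 over 31 of 10 kb or more. Over all genes these medians were -0.04 under 10 kb and 0.01 from 10 kb up. The summed log2 ratio of the members under 10 kb was -0.08, against -0.11 over all 1823 genes that short, and 5 of the 50 (10%) were at least 1.5-fold lower, against 11.1%. Short members were thus no lower in sum or count than short genes in general. The members of 10 kb or more summed to a log2 ratio of -0.06 (-0.11 to -0.02), against 0.01 over all 9252 genes that long. Of these 31 members, 1 (3.23%) was at least 1.5-fold lower, against 3.90%. The part of gene span in the member ratios was not tested.

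Of the 5 rows at 0, Cox4i1 and Ndufa13 lie inside another gene on the same strand, while Cox8b, Cox8c and Ndufa4l2 overlap none. Cox4i1 on chromosome 8 (120668222 to 120674207, GENCODE M21) lies wholly inside the predicted gene Gm20388 on the same strand, which held 8253 UMIs in control and 5868 in epilepsy nuclei. Ndufa13 on chromosome 8 (69894180 to 69902558) lies wholly inside Yjefn3, which held 131 and 115 UMIs. Of 420 protein-coding genes that lie inside another gene on the same strand, 419 were at 0 UMIs, against 19.2% of 20525 that overlap none. The 0 of Cox4i1 and Ndufa13 is thus shared by nearly all genes so placed and says nothing of their expression. Among the members, 5 overlap a gene on the same strand: Ndufb2, Ndufb9, Ndufb8 and both Atp5o rows.

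**Figure D5:**
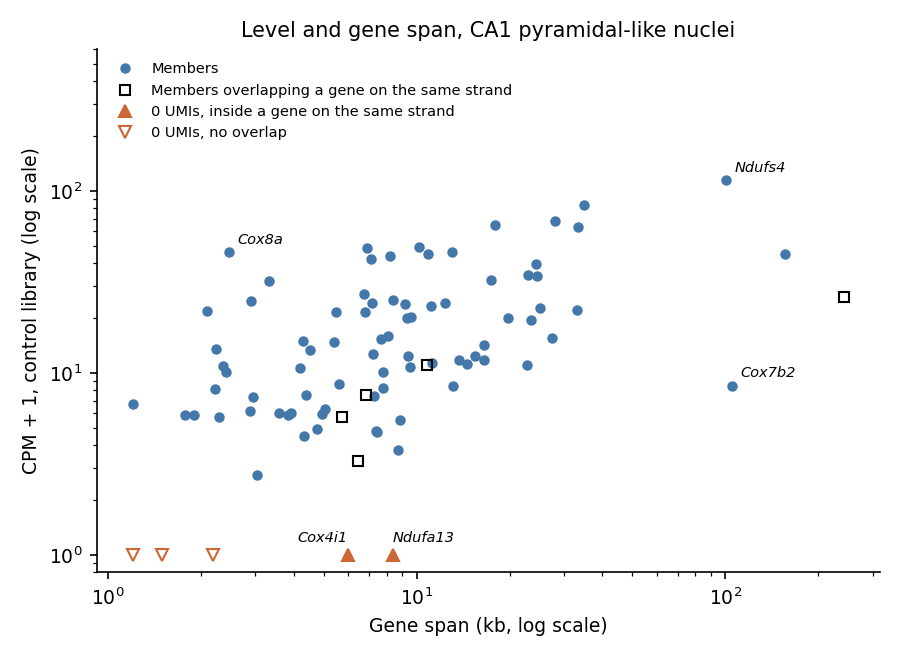
Level of the members in CA1 pyramidal-like nuclei of the control library, as CPM + 1 (y axis, log scale), against gene span in kb (x axis, log scale). Squares are the 5 members that overlap a gene on the same strand, and triangles at the bottom are name-rule rows at 0 UMIs. Cox4i1 and Ndufa13 are the 2 of these that lie inside another gene, and longer members tend to have more UMIs.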

How the data were processed

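Single-nucleus libraries were made with the 3' v2 chemistry of 10x Genomics and read as 75 bp paired ends, per the labels' protocols. The deposited UMI count per gene and nucleus was made by the authors with Cell Ranger 2.2.0 on GRCm38/mm10, and reads were checked with FastQC, per the submitters' processing notes. Whether introns were counted, how reads matching several genes were treated and the annotation release are not given in the sources used here. Many members have pseudogene copies, so low counts may be affected.

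From these counts, nuclei with at least 200 genes and under 5% mitochondrial UMIs were kept (all passed). Scrublet called 4 doublets in each library, under 0.5%, so the top 3% by score were removed. Nuclei were clustered (scanpy 1.11.5, leidenalg 0.10.2; 2000 variable genes without the members, 30 components, 20 neighbours, resolution 1) and classes were named from marker lists, with at least 3 markers. UMIs were summed per class and library. Ratios have exact conditional binomial intervals at 95% and levels exact Poisson ones. The ratio intervals were run on counts simulated from the Poisson model that they assume. Such a run cannot show how they hold where nuclei, mice or libraries vary more than that model. The intervals of levels were not run on simulated data. There is 1 library per condition, so no test was run. The control library had 11858162 UMIs and the epilepsy library 7112131.

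The members, lists and markers were chosen with earlier results of these data known. Named members are the 10 highest and 10 lowest by the interval bound nearest 0 among those with at least 100 UMIs, core subunits of complex I, complex II, isoform families, and the 2 highest and 2 lowest of each list. Not every gene this rule names is reported here. Alternatives were other scalings, weights, filters on nuclei, UMI minimums, clusterings and thinning to 1000 UMIs. TMM factors came from edgeR 4.0.16. Spans and overlaps are from GENCODE M21, in which 30407 of 30431 identifiers were found. A planned comparison of isoform protein sequences was not run.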

Additional observations from a re-analysis of the deposited data

Results flagged for a closer look

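The summed log2 ratio of complex IV, epilepsy to control, had opposite signs in the classes of pyramidal nuclei. It was -0.1288 in CA1 pyramidal-like nuclei (2362 and 1296 UMIs) and 0.7558 (0.09 to 1.46) in CA2/CA3 pyramidal-like nuclei (27 and 66 UMIs), and the difference between the classes was not tested. The CA2/CA3 class had 40 control and 64 epilepsy nuclei, and it held 21 and 52 at resolution 2, where the value was 0.44 (-0.33 to 1.28). Its lowest value over the 5 other clusterings was 0.31 with doublets kept, and the interval included 0 in all of them except resolution 0.5. Resolution 0.5 gave a class of the same size, 40 and 64 nuclei, and so adds no separate check. In the others the class held from 19 to 21 control nuclei. CA2/CA3 markers in the class stood at 1216 CPM among control and 2459 CPM among epilepsy nuclei, and their part in the value was not tested.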

How the results depend on the processing

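In CA1 pyramidal-like nuclei the summed log2 ratio of all members lay between -0.1214 and -0.02045 over 14 alternatives, and so kept its sign. It was -0.1214 with TMM factors and -0.02045 with equal weight per nucleus, where complex I subunits were at -0.02116. The median over members was -0.1229 with TMM factors and changed sign to 0.004542 with equal weight per nucleus. With equal weight but without the shallow sub-clusters, an alternative chosen after seeing the data, the sum was -0.08 and the median -0.08. Members at least 1.5-fold lower numbered 1 after thinning to 1000 UMIs, which left 50 members measured, and 1 with at least 200 UMIs, which left 41. Members at least 1.5-fold higher numbered 3 with equal weight, 2 in nuclei without a mitochondrially encoded UMI, 0 after thinning and 0 with at least 200 UMIs. With the sublayer split at the median marker score, superficial to deep in the epilepsy library was -0.09016, and epilepsy to control in deep nuclei was -0.07202. Apart from thinning and the UMI minimum, where fewer members were measured, the cause was not tested. Complex II, at -0.02 with an interval that includes 0, changed sign to 0.0194 with equal weight and to 0.06754 in nuclei without a mitochondrially encoded UMI. Complex III, at 0.06 with an interval that includes 0, changed sign to -0.01619 with equal weight and without the shallow sub-clusters. Of all values recomputed, 145 stayed near the reported value, these 3 among them, since they lie within its interval, 12 moved further and the median changed sign. Leaving out a replicate was not run, since each condition has 1 library. No paired analysis was possible because each condition has 1 library. Depth limits single members: of the 6 members at least 1.5-fold lower, only Ndufb3 had at least 200 UMIs.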
